A study of Caenorhabditis elegans with 2 samples.

Results

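HAM-2 chromatin binding was examined at 8 Caenorhabditis elegans genes of epithelial junctions and epidermal attachment in the embryo, called the junction genes below. They were hmr-1, hmp-1, hmp-2, jac-1, ajm-1, dlg-1, let-413 and the attachment gene vab-10, out of 19973 protein-coding genes on the 6 nuclear chromosomes. The 8 genes were chosen by name, with peaks of these same lists already known, so every value below is a description and carries no test. The data are ChIP-seq peak lists from whole embryos of strain OP639, which carries the integrated transgene wgIs639 (ham-2::TY1::EGFP::3xFLAG with unc-119(+)) in an unc-119 (tm4063) background, immunoprecipitated through the GFP tag. The embryos were of mixed stage and sex, obtained by bleaching, with an age of 3 hours in the labels. There is 1 group with 2 biological replicates, numbered 6 and 7, and no group without the tag. Binding limited to a few cells is averaged over the whole embryo, and the lists do not show which cells a peak comes from.

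Epithelial cells of the worm embryo are joined by a single apical junction that carries an adhesion system and, just basal to it, a separate scaffold. In the adhesion system the classical cadherin HMR-1 binds the β-catenin HMP-2 and the p120 catenin JAC-1, and the α-catenin HMP-1 ties HMP-2 to actin. The scaffold is made of the MAGUK protein DLG-1 and the coiled-coil protein AJM-1, and the Scribble-type protein LET-413 acts on the basolateral side to gather the junction into a belt. VAB-10 is a spectraplakin whose isoforms link the epidermis to the body muscle and to the cytoskeleton. These proteins act together when the epidermis encloses the embryo and the embryo lengthens into a worm.

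The bases under 5 of the summits are shown because they hold the strongest peak of the 8 genes, the strongest peak inside ajm-1, the peak beside a tRNA gene, and the single peaks of hmp-1 and let-413. Each stretch runs 50 bases to either side of the summit base and was read from the RefSeq genome WBcel235 (ce11), on the strand of the gene and 5′ to 3′. Capitals mark GAGAGA on either strand, where TCTCTC is its complement, and overlapping copies are joined.
dlg-1 upstream, chrX:5475339-5475439, plus strand: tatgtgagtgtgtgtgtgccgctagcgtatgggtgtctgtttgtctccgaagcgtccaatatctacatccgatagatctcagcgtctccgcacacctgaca
ajm-1 intron 11, chrX:9102413-9102513, plus strand: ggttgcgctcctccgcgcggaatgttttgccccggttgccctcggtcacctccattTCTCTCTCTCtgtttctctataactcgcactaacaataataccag
ajm-1 upstream, chrX:9078284-9078384, plus strand: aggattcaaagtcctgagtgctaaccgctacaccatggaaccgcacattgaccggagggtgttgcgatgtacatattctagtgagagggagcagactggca
hmp-1 upstream, chrV:11844980-11845080, plus strand: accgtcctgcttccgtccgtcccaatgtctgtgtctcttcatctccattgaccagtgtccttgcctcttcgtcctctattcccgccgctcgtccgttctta
let-413 upstream, chrV:7978889-7978989, minus strand: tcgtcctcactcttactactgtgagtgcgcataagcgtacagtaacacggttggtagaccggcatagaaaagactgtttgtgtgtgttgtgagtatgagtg
The ajm-1 intron stretch holds a run of TC repeats with 3 overlapping copies of GAGAGA on the other strand, and none of the other 4 stretches holds the word.

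Of the 8 genes, 7 had at least 1 reproducible summit between 5 kb upstream of the gene start and its far end, with 18 summits in all. The reproducible list is the submitters' final set of 1945 peaks, made from both replicates with a cutoff on the irreproducible discovery rate. It equals the 1945 strongest pooled peaks, so a peak in it need not rank high in each replicate alone. By the same rule 13.2% of protein-coding genes (2637 of 19973) had a summit. The genes were picked with these peaks known, so nothing is read from that difference. With genes split into 5 classes of window length, from short to long, the shares with a summit were 9.15, 8.62, 10.5, 14 and 23.8%. The last class has windows of 9.32 kb or more, and 7 of the 8 junction genes belong to that class. The order by number was hmr-1 with 5, ajm-1 and vab-10 with 4 each, dlg-1 with 2, hmp-1, hmp-2 and let-413 with 1 each, and jac-1 with 0. This order changed with the replicate used. Among the 1945 strongest peaks of replicate 6 alone vab-10 had 5, hmr-1 had 4, and ajm-1 and dlg-1 had 3 each, and among those of replicate 7 alone hmr-1 had 7, ajm-1 and vab-10 had 3 each and dlg-1 had 1. In the reproducible list the genes hmr-1, ajm-1 and vab-10 had 4 or more, a number that 0.13% of protein-coding genes (26) reach. Their windows, at 63.9, 35.7 and 62.6 kb, are longer than 99.98, 99.71 and 99.97% of protein-coding windows. The 0.13% is not matched for window length, so nothing is read from it.

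Per kb of window the order was different. The reproducible list gave dlg-1 0.195 summits per kb, hmp-2 0.114, ajm-1 0.112, let-413 0.103, hmp-1 0.0885, hmr-1 0.0782 and vab-10 0.0639. The neighbours from hmp-2 to hmp-1 rest on 1 summit each, apart from ajm-1, and cannot be ordered. The 8 windows together held 0.0762 summits per kb, against 0.0193 for the windows of all protein-coding genes together and 0.0231 for those of the longest class. The median of the 8 genes was 0.0958 per kb, and that of all protein-coding genes was 0. For dlg-1, 98.7% of protein-coding genes had a lower density, and for vab-10, 87.7%. As 86.8% of protein-coding genes had no reproducible summit, any gene with 1 or more stands above at least that share. The vab-10 value is close to that floor, and the median of 0 follows from the same share. The dlg-1 value rests on 2 summits: it was 0.293 per kb from replicate 6 alone and 0.0976 from replicate 7 alone, where let-413 (0.103) and hmr-1 (0.11) were denser. Within the class of longest windows hmr-1 stood above 84.5% of genes and ajm-1 above 95.7%. Only 23.8% of the genes in that class had a summit, and any gene with a summit stands above all the others.

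**Figure D1:**
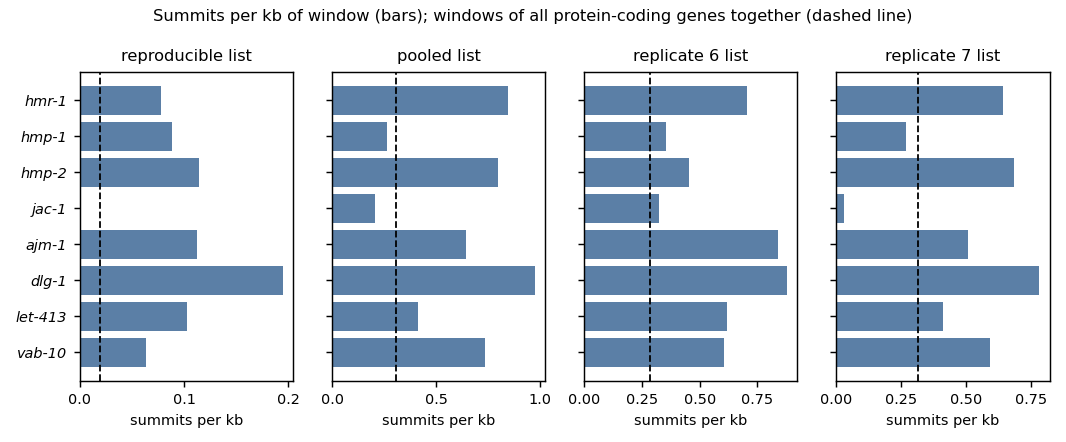
Summits per kb of window (5 kb upstream to the far end) for the 8 genes in the reproducible, pooled, replicate 6 and replicate 7 lists; bars are the genes and the dashed line is the value for all protein-coding windows together. In the reproducible list 7 bars pass the line at 0.0193 per kb and jac-1 has none, whereas in the pooled list hmp-1 (0.266) and jac-1 (0.206) fall below the line at 0.306.

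In the longer lists, which include background, 6 of the genes (all but hmp-1 and jac-1) lay above the value for all windows in every list. The pooled list, called on both replicates together, held 154 summits in the 8 windows, or 0.652 per kb against 0.306 for all protein-coding windows. In replicate 6 the 8 windows held 147 summits (0.622 per kb against 0.284) and in replicate 7 they held 118 (0.5 per kb against 0.314). By gene the pooled list had 54 summits at hmr-1, 46 at vab-10, 23 at ajm-1, 10 at dlg-1, 7 each at hmp-2 and jac-1, 4 at let-413 and 3 at hmp-1. Density at dlg-1 was high in every list, at 0.976 per kb in the pooled list, 0.879 in replicate 6 and 0.781 in replicate 7. At hmp-1 it was near the value of all windows, at 0.266, 0.354 and 0.266 per kb.

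The cadherin gene hmr-1 (WBGene00001980, chromosome I, 11075755 to 11134667, minus strand) is the largest of the 8, with a window of 63.9 kb. It has 5 annotated transcripts that start at 4 positions. The longest, W02B9.1b.1, has 31 exons and, as background, encodes the long HMR-1B cadherin of neurons, while W02B9.1a.1 and W02B9.1a.2 start 40141 bp further downstream and encode the HMR-1A cadherin of epithelia. All 5 reproducible summits lay within 10931 bp in the part of the gene with the internal starts, and none lay near the start of the long transcript. They were 906 to 2529 bp from the nearest internal start. The internal starts lie 40141, 46835 and 50614 bp downstream of the first start, so any summit between them is near one, and nothing is read from these distances. The first, from 11095680 to 11096099, had a signal of 193 and lay in intron 21 of the long transcript, 1364 bp upstream of the start of W02B9.1a.1. Its rank by signal was 584 in the reproducible list, 584 in replicate 6 and 770 in replicate 7. The peak from 11091787 to 11092206 had its summit in intron 22 with signal 177.5, 2529 bp downstream of the same start, with ranks of 998 and 529 in replicates 6 and 7.

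The other 3 summits of hmr-1 were weaker. One in intron 22 (11090081 to 11090500) had a signal of 108.6 and lay 2459 bp upstream of the start of W02B9.1d.1, with ranks of 2043 in replicate 6 and 5578 in replicate 7. A pair in intron 25 had signals of 126.3 (11085909 to 11086328) and 123.7 (11084749 to 11085168), 1713 bp downstream of the W02B9.1d.1 start and 906 bp upstream of the W02B9.1e.1 start. The first of that pair had no replicate 6 summit within 100 bp and ranked 1295 in replicate 7, and the second ranked 1656 and 1373. Within 250 bp the first had a replicate 6 summit at rank 1718. That summit, at 11086291, lay nearer to another pooled summit, at 11086321, which is outside the reproducible list. Introns 21, 22 and 25, at 18.3, 5.56 and 2.66 kb, have ranks 1, 2 and 5 by length among the 30 introns of this transcript.

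The longer lists, which also hold the reproducible summits, spread over the whole of hmr-1. Counting from the start of W02B9.1a.1, the 45.1 kb before it held 36 pooled summits (0.798 per kb) and the 18.8 kb after it held 18 (0.959 per kb). The reproducible list had 1 summit before and 4 after (0.0222 and 0.213 per kb). In replicate 6 the densities were 0.709 before and 0.693 after, and in replicate 7 they were 0.51 and 0.959. Replicate 7 and the pooled list were thus denser after that start, and replicate 6 was not; the difference was not tested. The strongest pooled summit at hmr-1 outside the reproducible list had a signal of 93.3, at pooled rank 2435, and lay in intron 21, 22990 bp downstream of the first start site. Of all protein-coding genes, 3 had exactly 5 reproducible summits and 7 had more. The other genes with 5 were lsy-22 and lir-1, whose windows of 19.1 and 15.4 kb are much shorter than that of hmr-1, so their densities were 0.261 and 0.326 per kb.

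**Figure D2:**
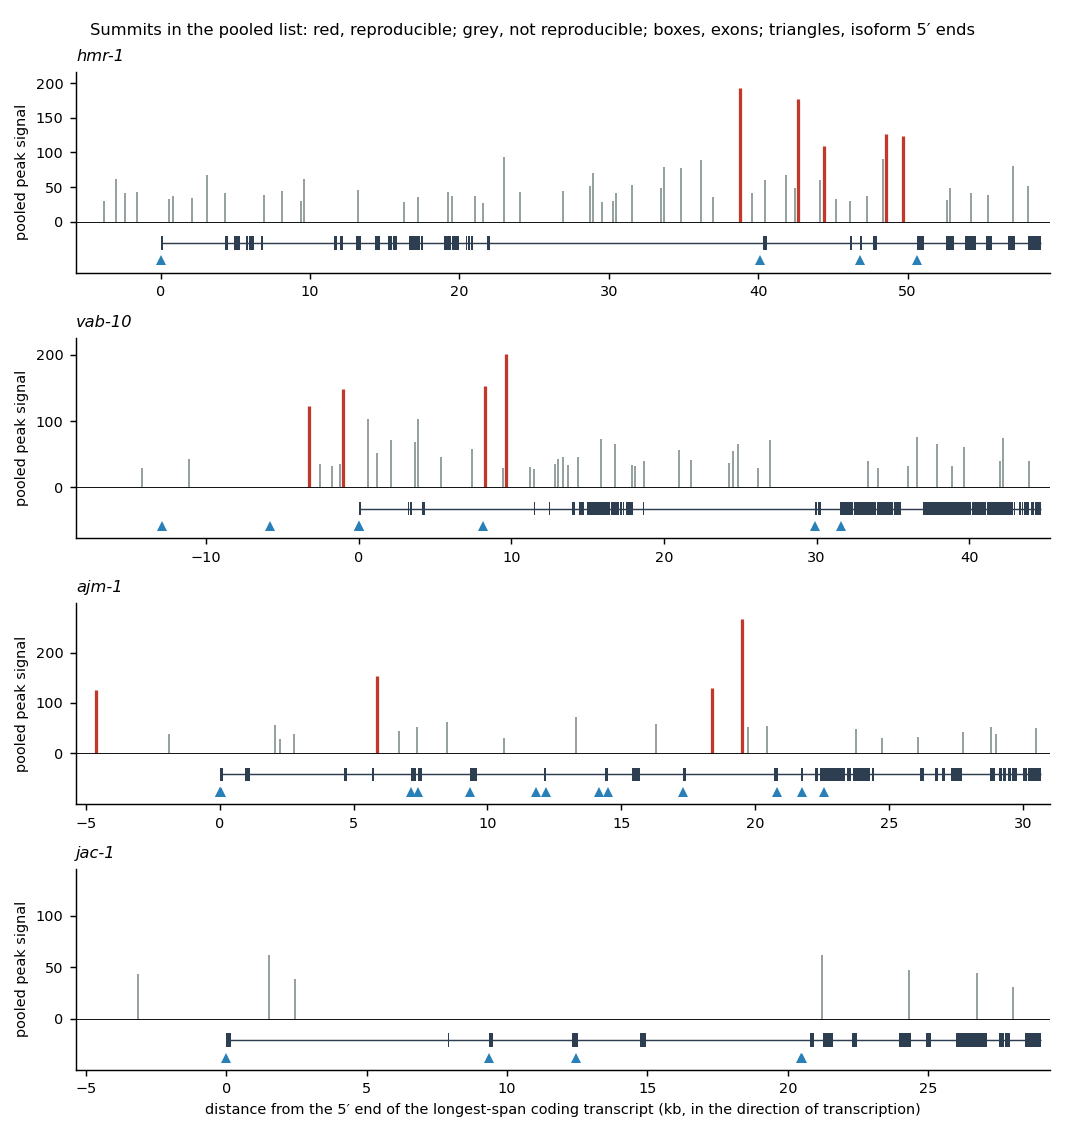
Pooled summits along hmr-1, vab-10, ajm-1 and jac-1; the horizontal axis is the distance in kb from the 5′ end of the longest-span coding transcript in the direction of transcription, and the vertical axis is the authors' pooled peak signal. Red lines are reproducible summits, grey lines are other pooled summits, boxes are exons and triangles are isoform 5′ ends. The 5 red lines of hmr-1 lie in the part of the gene with the 3 internal triangles, and jac-1 has no red line.

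The catenin genes carried few reproducible summits by number. Per kb of that list hmp-1 and hmp-2, with windows of 11.3 and 8.79 kb, were not below hmr-1. The α-catenin gene hmp-1 (WBGene00001978, chromosome V, 11845871 to 11852166, plus strand) had 1 reproducible summit, 841 bp upstream of its start, in the peak from 11844820 to 11845239. Its signal was 168.7, rank 784, with ranks of 1143 in replicate 6 and 662 in replicate 7, and it lay inside the annotated ncRNA gene R13H4.11. The other pooled summits of hmp-1 had signals of 47.6 and 27.8, so a single peak stood clear of the rest there.

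The β-catenin gene hmp-2 (WBGene00001979, chromosome I, 14738882 to 14742671, plus strand) had 1 summit 1405 bp upstream of its start, from 14737267 to 14737686, with a signal of 117.3. It ranked 1406 in replicate 6 and 5901 in replicate 7, so the replicates placed it far apart, and it was not among the 1945 strongest peaks of replicate 7 taken alone. The summit lay nearer to another protein-coding gene, 225 bp upstream of the start of K05C4.7, and which gene it belongs to was not tested. The next pooled summit of hmp-2, 831 bp upstream of its start, had a signal of 70.4, no replicate 6 summit within 100 bp and rank 2297 in replicate 7.

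The p120 catenin gene jac-1 (WBGene00002175, chromosome IV, 15997835 to 16026847, minus strand) had no reproducible summit in its 34.01 kb window, although it is longer than 99.7% of protein-coding windows. The nearest reproducible summit lay 138963 bp beyond the upstream edge of the window. The pooled list had 7 summits there with signals from 31.1 to 62.3, the strongest in intron 1, 1526 bp downstream of the start, at pooled rank 5503. Replicate 6 had 11 summits (0.323 per kb) and replicate 7 had 1 (0.0294 per kb), with best ranks of 3108 and 4719. In the pooled list 43.6% of protein-coding genes had a lower density than jac-1.

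The scaffold gene dlg-1 (WBGene00001006, chromosome X, 5479700 to 5484941, plus strand) had the strongest peak of the 8 genes. The peak from 5475196 to 5475558 had its summit 4311 bp upstream of the start, with a signal of 434.5 and rank 90 of 1945, and it ranked 70 in replicate 6 and 145 in replicate 7. The nearest protein-coding start was that of dlg-1 itself, and the summit lay inside the annotated ncRNA gene C25F6.10. The second summit, 575 bp inside the gene in intron 1 (peak 5480065 to 5480484), had a signal of 106.2 and was the member summit closest to the end of the reproducible list, at rank 1917. It ranked 1679 in replicate 6 and 3168 in replicate 7. Among the 1945 strongest peaks of each replicate alone, the dlg-1 window held 3 summits in replicate 6 and 1 in replicate 7. The 3 include close neighbours at 5475367 (rank 70) and 5475567 (rank 1852). Replicate 7 had a summit at 5475557 with rank 1960. Summits this close are counted separately in each list. A further reproducible summit with a signal of 149 lay 944 bp beyond the upstream edge of the dlg-1 window and is not counted.

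The other scaffold gene, ajm-1 (WBGene00000100, chromosome X, 9082946 to 9113619, plus strand), has 16 annotated transcripts with 14 start positions. Its 4 reproducible summits spanned 24129 bp. The strongest, in intron 11 of C25A11.4a.1 (peak 9102387 to 9102569), had a signal of 266.1, rank 303, and ranked 387 in replicate 6 and 263 in replicate 7. It lay 1299 bp upstream of the start of the shorter transcript C25A11.4i.1. A weaker summit in the same intron (9101131 to 9101550) had a signal of 129.9, 1090 bp downstream of the start of C25A11.4h.1, with ranks of 2699 in replicate 6 and 563 in replicate 7. The summit in intron 4 (9088623 to 9089042) had a signal of 152.8 and lay 1264 bp upstream of the start of C25A11.4a.2, with ranks of 1214 and 917. The fourth lay 4612 bp upstream of the gene start (9078265 to 9078438), with a signal of 126.2 and ranks of 1059 and 3649. It was 9 bp from the tRNA gene WBGene00023052, and the nearest coding start was that of F47E1.1, 1148 bp away.

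The basolateral gene let-413 (WBGene00002632, chromosome V, 7973078 to 7977776, minus strand) had 1 reproducible summit, 1163 bp upstream of its start (peak 7978729 to 7979148). Its signal was 148.7, rank 1016, with ranks of 1264 in replicate 6 and 829 in replicate 7. It lay inside the annotated ncRNA gene F26D11.16. All 4 pooled summits of let-413 were upstream of the start, and the other 3 had signals of 50.2 or less.

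**Figure D3:**
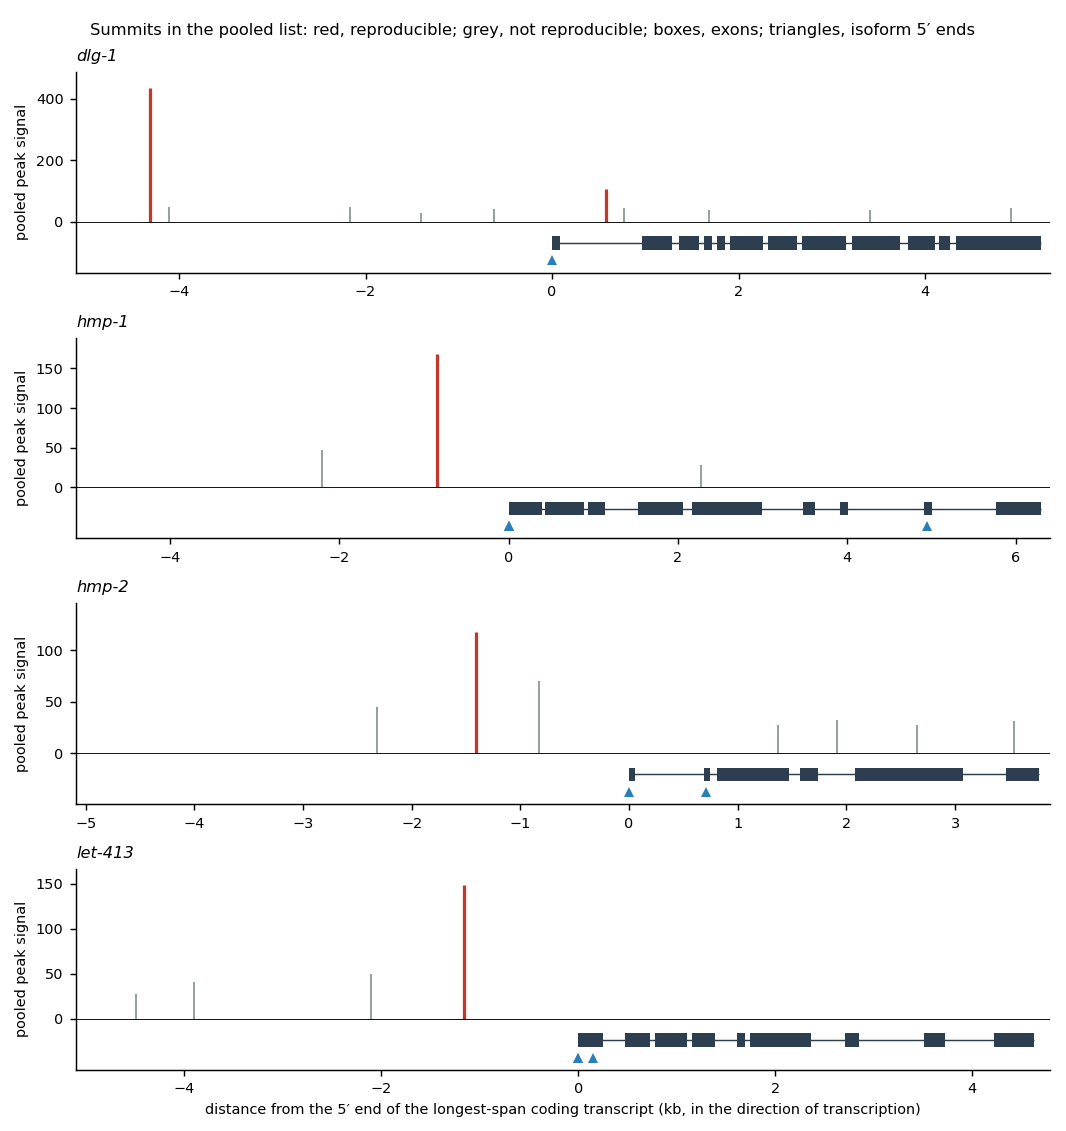
Pooled summits along dlg-1, hmp-1, hmp-2 and let-413, drawn with the axes and colours of the map of the 4 long genes. The tallest line, at dlg-1, reaches 434.5 at 4311 bp upstream of the start, and each of the other 3 genes has 1 red line upstream of its start.

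The spectraplakin gene vab-10 (WBGene00006876, chromosome I, 11747424 to 11804991, minus strand) has 14 annotated transcripts with 8 start positions, and the transcript with the longest span, ZK1151.1c.1, starts inside the gene. Its 4 reproducible summits formed 2 pairs. Counted from the start of ZK1151.1c.1, the first pair lay 3247 and 992 bp upstream, in introns of the transcripts that start earlier, with signals of 121.9 (11795155 to 11795574) and 148.4 (11792900 to 11793319). The second pair lay in intron 5, 124 and 1495 bp downstream of the start of ZK1151.1i.1, with signals of 153 (11783605 to 11784024) and 201.5 (11782234 to 11782653). For 3 of the 14 transcripts the summit 124 bp from that start lay in an exon. The strongest of the 4 ranked 718 in replicate 6 and 404 in replicate 7. The summit 3247 bp upstream ranked 912 in replicate 6 and had no replicate 7 summit within 100 bp. Within 250 bp it had a replicate 7 summit at rank 6628. A pooled summit in intron 1 of vab-10, with a signal of 103.1 at pooled rank 2011, was the member summit just outside the reproducible list.

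The 18 summits varied in both placing and signal. By the longest-span transcript of each gene, 11 lay in introns, 7 upstream and 0 in exons. Of the 7 upstream summits, 5 lay outside every annotated transcript of their gene, and the vab-10 pair lay in introns of its earlier-starting transcripts. Exons make up 19.7% of the bases of the 8 windows and held 35 of the 154 pooled summits (22.7%). Introns make up 57.8% of the bases, and bases upstream of the longest-span transcript 22.4%. At vab-10 these upstream bases number 17873, more than 5 kb, because that transcript starts inside the gene. The distance to the nearest annotated start of the gene ran from 124 to 4612 bp with a median of 1332 bp, and 11 of the 18 lay on the upstream side of that start. Within 1 kb of any protein-coding start lay 6 of the 18 (33.3%), against 52.8% of all 1945 reproducible summits. Signals ran from 106.2 to 434.5 with a median of 148.6, against a median of 152.4 over the reproducible list.

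The replicates placed most of these summits at the same positions but at different ranks. Of the 18, 16 had a summit within 100 bp in both replicates, with a largest offset of 64 bp over all matches. Both replicates placed 11 of the 18 (61.1%) among their 1945 strongest peaks, 6 were there in 1 replicate alone and 1 in neither. Over the whole reproducible list the share in both was 61.0%, so the junction genes stood at the level of the list. These counts depend on the 100 bp match. Within 250 bp all 18 had a summit in both replicates, though at hmr-1 the wider match took a replicate 6 summit nearer to another pooled summit. By overlap of the peaks, 12 of the 18 were among the strongest of both replicates, against 1271 of the 1945. For the 16 summits matched within 100 bp the larger rank was 1.21 to 4.79 times the smaller, with a median of 1.83. The ranks lay within 1.5 times of each other for 5 summits and more than 2 times apart for 6. The rank was better in replicate 7 for 10 of the 16 matched summits and in replicate 6 for the other 6.

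**Figure D4:**
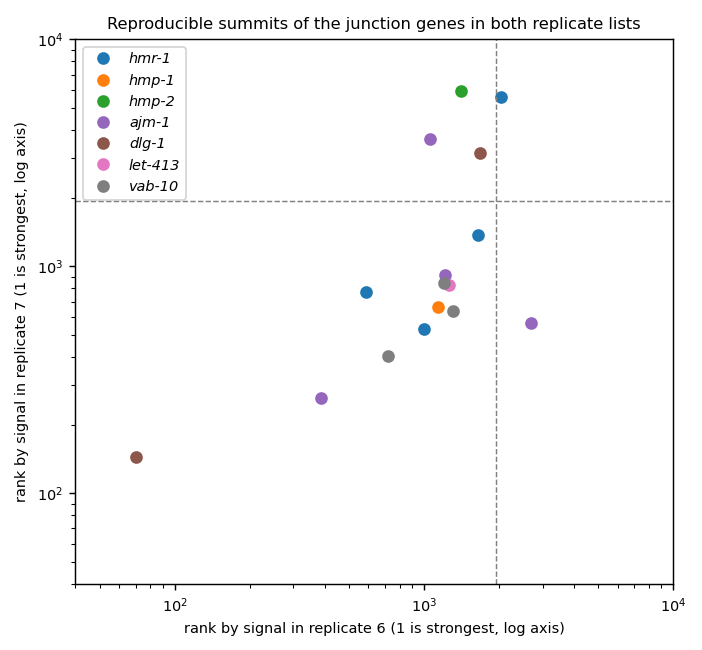
Rank by signal in replicate 6 (horizontal, log axis) and replicate 7 (vertical, log axis) of the 16 reproducible summits matched in both replicates, coloured by gene; dashed lines mark rank 1945. The dlg-1 upstream summit is lowest on both axes at ranks 70 and 145, and 4 summits lie above the dashed line of replicate 7.

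The sequence under the summits resembled that of the whole list in base composition. GC content within 50 bases of the summit ran from 26.7 to 58.4% with a median of 48.5%, against 49.5% for all reproducible summits and 35.4% for the genome. The words searched on both strands were GAGAGA (a purine repeat), the worm telomere repeat TTAGGC, the GATA factor word TGATAA and the nuclear receptor word AAGGTCA. A window counts once for each word it holds. GAGAGA was found in 5 of 18 windows, at hmr-1 (2), vab-10 (2) and ajm-1 (1). It was found in 25.1% of all reproducible windows, in 9.25% of equal windows centred 250 bp downstream and in 8.86% of windows of that length before all protein-coding starts. TTAGGC and TGATAA were found in 0 of 18, against 8.69% and 3.80% of all reproducible windows. AAGGTCA was found in 1 of 18, at vab-10, against 1.44%. Inside an annotated ncRNA gene lay 4 of the 18 summits (22.2%), against 16.5% of the list, and 1 of 18 (5.56%) lay within 250 bp of a tRNA gene, against 8.48%.

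Other genes of the same processes were counted by the same window. Of 22 further junction and polarity genes, 11 had a reproducible summit (50%), with a median pooled density of 0.378 per kb. Over all protein-coding genes these values were 13.2% and 0.277 per kb, and in the class of longest windows 23.8% and 0.315 per kb. The strongest were at magu-2, a MAGUK gene (chromosome V, 8796301 to 8796720, signal 248.5, in intron 4), and at the afadin gene afd-1 (chromosome I, 2155571 to 2155990, signal 227.4, 4261 bp upstream). The claudin-like genes clc-2 and clc-5 share 1 peak with a signal of 190.7, and it ranked 402 in replicate 6 and 8424 in replicate 7. Both genes are among the 11 through this single peak. The polarity gene par-3 had 3 summits, and pkc-3, lgl-1 and crb-1 had 1 each, whereas par-6, erm-1, sma-1 and cdc-42 had none.

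Of 10 epidermal attachment genes measured, 2 had a reproducible summit (20%), near the 23.8% of all genes with the longest windows, and the median pooled density was 0.565 per kb. Among the 3890 strongest pooled peaks, 7 of the 10 had a summit, beside 15 of the 22 junction and polarity genes. In that list 23% of all protein-coding genes had a summit, a share not matched for window length. The genes with a reproducible summit were the syndecan gene sdn-1 (chromosome X, signal 241.9, 4329 bp upstream) and the perlecan gene unc-52 (chromosome II, 3 summits, strongest signal 147.1 in intron 7). The attachment genes let-805, mup-4, mua-3, vab-19 and pat-12 had none. Their windows were not short, at 28.0, 14.4, 27.8, 12.7 and 30.2 kb, and they held 24, 8, 16, 5 and 15 pooled summits. The remaining genes without a reproducible summit, ifb-1, mua-6 and ifa-3, had shorter windows of 11.5, 8.4 and 7.87 kb. They held 9, 4 and 3 pooled summits.

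Of 21 genes of actomyosin and actin in morphogenesis, 13 had a reproducible summit (61.9%), with a median pooled density of 0.687 per kb. Of those reported here, the β-spectrin gene unc-70 had 3 summits, the strongest in intron 7 with a signal of 374.6, 27 bp from the snoRNA gene K11C4.6. The WAVE complex gene gex-3 had 1, 776 bp upstream, with a signal of 250.9. These 3 lists have median windows of 12.9, 13.6 and 13.0 kb, in the class of longest windows, where 23.8% of genes had a summit.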

How the data were processed

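The samples are 2 ChIP-seq libraries, replicates 6 and 7 of 1 group. The deposited listing names ce11 as the assembly. It derives the replicate and pooled lists from the ChIP alignments with a further input, taken here as the control, and the reproducible list from those 3 lists. The control is not analysed here. For aligner, caller, versions and depth: not given in the sources used here. The precision that depth allows is thus unknown. The signal is the value the authors' caller gave and deposited, with its scaling against depth not stated, and it was used to describe and rank peaks within a list. The lists hold 1945, 30000 (pooled), 28424 (replicate 6, with 10 mitochondrial peaks left out) and 30000 (replicate 7) peaks. The reproducible list equals the 1945 strongest pooled peaks, so these lists share their values.

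In all 24 pairs of list and chromosome the last peak ended inside the WBcel235 chromosome. Gene models came from Ensembl release 115. A summit is the peak start plus the deposited offset, 1-based. Windows run from 5 kb upstream of the gene start to its far end. Places refer to the coding transcript with the longest span. Replicate summits were matched within 100 bp. The members and lists were chosen with earlier results of these data known. No p-value was computed: there is 1 group, and the lists chose the members. Named genes are the 8 members, the 4 genes with the strongest summit in each further list, and neighbours of member summits. Genes with as many summits as the leading member are named by the same rule. After their values were seen, par-3, par-6, pkc-3, lgl-1, crb-1, erm-1, sma-1, cdc-42, let-805, mup-4, mua-3, vab-19, pat-12, ifb-1, mua-6 and ifa-3 were also named. Of the genes this rule names, 2 are not reported here. Of the listed genes, ifa-2 had no match by symbol. Windows before gene starts, as long as the summit windows, were read from the genome, in place of a promoter table. Counting was tested on simulated summits. Computations used Python 3.11.15, numpy 2.4.6 and matplotlib 3.10.9. Alternatives are 11 settings of list, window and summit.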

Additional observations from a re-analysis of the deposited data

How the results depend on the processing

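The number of members with a summit was 7 in the main setting and in 2 kb windows. It was 4 with the gene body alone, where 3.04% of all genes had one, and 5 in the upper 50% of the list. It was 6 without replicate 6, among reproducible peaks in the strongest of both replicates, and with windows that stop at the next gene. In these settings with 6, hmp-2 was the gene lost. The 18 summits became 8 in the upper 50% of the list (972 peaks) and 29 among the 3890 strongest pooled peaks. They were 16 without replicate 6 and 18 without replicate 7, each from the 1945 strongest peaks of the other replicate. The median of the members, 0.0958 per kb, was 0.0316 in the upper 50%, 0.113 among the 3890, 0.0593 among reproducible peaks in the strongest of both replicates, 0.0347 in the gene body, 0.106 with 2 kb upstream, 0.0703 with 5 kb added past the far end, 0.0952 with windows that stop at the next gene, and 0.0863 with either replicate alone. The share of all genes with a summit, 13.2%, was 7.12%, 23%, 8.75%, 3.04%, 9%, 19.3% and 8.96% in those 7 settings, 13.7% by any overlap of the peak and 12.9 to 13.3% with 1 replicate left out. Within 1 kb of a start lay 3 summits by the longest-span transcript and 5 by the nearest isoform. Without replicate 6, hmp-2 had 0 summits and dlg-1 had 1; jac-1 had 0 in all 11 settings. By gene body alone the further lists had 4 (junction and polarity), 1 (attachment) and 3 (actomyosin) genes with a summit, and among the 3890 strongest pooled peaks 15, 7 and 15. In the upper 50%, hmr-1, ajm-1 and vab-10 had 2 summits each.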
